A study of Mus musculus with 113 samples.

Results

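The 9 genes described here belong to the retinoic acid pathway. They are the nuclear receptors Rara, Rarb and Rarg, the enzymes Aldh1a2, Dhrs3, Cyp26a1 and Cyp26b1, and the binding proteins Crabp1 and Crabp2. They were taken by gene symbol, and not by a threshold on any measured value, from 4 gene tables that together list 23739 genes. All 9 were found among 13541 genes of the SFEB populations, 13738 genes of the adherent monoculture and 23107 genes of the E14 samples, and 8 of them among 11449 genes of the SFEB single cells, in which Cyp26a1 was not analysed here.

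Retinoic acid is a small lipid made from vitamin A: retinol is oxidised to retinaldehyde, which Aldh1a2 turns into retinoic acid, while Dhrs3 reduces retinaldehyde back to retinol and the Cyp26 enzymes break retinoic acid down. Crabp1 and Crabp2 carry retinoic acid in the cytoplasm, and the receptors bind DNA together with RXR partners at paired half-sites and switch nearby genes on when the ligand is present. In the embryo the pathway is best known for patterning the hindbrain and spinal cord and for promoting the differentiation of neural progenitors, and Rarb, Cyp26a1 and Dhrs3 are textbook genes that respond to it.

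The study followed mouse R1 embryonic stem (ES) cells, an established line, through neural differentiation by RNA-seq. In SFEB culture (floating aggregates without serum) the cells were kept in GKSR medium and replated on day 6 in GMEM-N2 medium, and 22 populations were sequenced: a first series of 14 time points from 0 to 142 h, and a parallel series of 8 time points from 0 to 216 h at which 8 single cells each were also picked by hand. In adherent monoculture the cells were plated in N2B27 medium on gelatin and replated on day 6, and 15 time points from 0 to 216 h were sequenced. A second line, E14, was sequenced as wild type (WT) and as 1 Fyn KO clone, in which a CRISPR deletion removes the first part of the coding sequence of the kinase Fyn, at days 0 and 4 of differentiation with 3 replicates each. The labels of the E14 samples describe both culture methods without saying which was used, and no label names retinoic acid as an addition to any culture. Each R1 time point is 1 library, so the spread was taken over 4 windows of neighbouring times, 0-9 h, 22-60 h, 68-106 h and 126-216 h, with 6, 6, 6 and 4 SFEB libraries and 3, 4, 4 and 4 adherent ones (20.5 h was placed in the second window and 125.5 h in the last). Differences between windows therefore cover the drift of time within a window as well as technical error, and nothing in the labels says that samples came from separate cultures.

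Some facts of the libraries bear on the values below. Summed over 10 fibroblast marker genes, of which all 10 were in both tables, the R1 samples of 0-9 h held 353 to 842 FPKM in SFEB and 263 to 358 FPKM in adherent culture, against 15.3 to 126 FPKM in every later SFEB sample and 48.2 to 130 FPKM in every later adherent sample. The study's methods describe a passage of the ES cells without feeder cells, meant to remove these. Whether the marker sums come from remaining feeder cells was not tested. Summed neural progenitor markers went from 22.6 to 45.4 FPKM at 0-9 h to 422 to 995 FPKM at 126-216 h in SFEB, and summed naive ES cell markers from 630 to 1006 FPKM to 44.5 to 224 FPKM. In a bulk sample fewer cells with a transcript and less of it per cell cannot be told apart. In the E14 samples Fyn stood at 2.74 to 9.44 FPKM in the 6 WT libraries and at 0.598 to 1.58 FPKM in the 6 Fyn KO libraries, without overlap.

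The promoters of Rarb and Cyp26a1 carry the kind of sequence that the receptors are known to bind, and they are shown because both genes rose late in R1 differentiation. The half-site was taken as AGGTCA or one of its common variants, the first of them being AGTTCA, the next GGGTCA, and the last variant GGTTCA. The search was for a pair of half-sites in the same direction separated by 5 bases (a DR5 element), on both strands of RefSeq promoter windows from 250 bases before to 50 bases after each gene start (assembly GRCm38.p6). Of 32851 such windows of all genes 32 held a DR5 element, or 0.0974%. The 8 members with a window have 14 windows between them, and DR5 elements were found in those of Rarb and Cyp26a1. Pairs separated by 1 or 2 bases, found in 0.222% and 0.268% of all windows, were in none of the 14. Below are the 250 bases before each start, 5′ to 3′ on the strand of the gene, with the DR5 element in capitals. The Rarb window lies at chr14:16575477-16575726 on the minus strand, with the element from 53 to 37 bases before the start. The Cyp26a1 window lies at chr19:37697558-37697807 on the plus strand, with the element on the opposite strand from 32 to 16 bases before the start.
Rarb: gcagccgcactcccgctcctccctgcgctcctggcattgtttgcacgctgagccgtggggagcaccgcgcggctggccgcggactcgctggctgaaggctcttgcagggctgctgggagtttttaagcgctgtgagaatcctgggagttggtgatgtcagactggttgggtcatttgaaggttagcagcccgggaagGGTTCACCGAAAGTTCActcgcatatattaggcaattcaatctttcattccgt
Cyp26a1: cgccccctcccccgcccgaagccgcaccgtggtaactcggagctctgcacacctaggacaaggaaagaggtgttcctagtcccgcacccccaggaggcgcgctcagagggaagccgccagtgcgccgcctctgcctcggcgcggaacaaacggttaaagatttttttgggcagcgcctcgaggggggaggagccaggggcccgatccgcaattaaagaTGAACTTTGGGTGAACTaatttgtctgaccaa
A match is a description of these letters and says nothing of binding in these cells. On the older build that the R1 samples were mapped to (NCBIM37, mm9, GENCODE M1 annotation), all 9 members are protein-coding genes on 8 chromosomes. Rara lies at chr11:98789132-98836256, Rarb at chr14:17263356-17651381 and Rarg at chr15:102065369-102087948. The enzymes lie at chr9:71063596-71144050 (Aldh1a2), chr4:144482730-144518112 (Dhrs3), chr19:37772298-37776018 (Cyp26a1) and chr6:84521938-84543740 (Cyp26b1), and the binding proteins at chr9:54612555-54620917 (Crabp1) and chr3:87752588-87757298 (Crabp2).

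Among the receptors, Rarg and Rara were the forms of the ES cells and both fell, while Rarb was low and rose. Rarg, a receptor known to be abundant in ES cells, ranged in SFEB from 31.4 to 74.0 FPKM (median 40.2) at 0-9 h, from 37.6 to 71.0 FPKM (median 48.1) at 22-60 h and from 9.13 to 29.0 FPKM (median 20.1) at 68-106 h. Its last 4 values were 5.61 FPKM at 126 h, 2.996 FPKM at 142 h, 10.6 FPKM at 144 h and 4.14 FPKM at 216 h. Within the first window Rarg went up, from 31.4 FPKM at 0 h to 74.0 FPKM at 8 h in the first series. In the parallel series it went from 42.5 FPKM at 0 h to 64.3 FPKM at 9 h, and in adherent culture from 62.2 FPKM at 0 h to 86.8 FPKM at 8.5 h. These early changes were not tested. The first windows overlapped throughout, the third lay wholly below both, and the last overlapped the third by the 144 h library alone. Rarg fell by 1.36 ± 0.27 (log2 fold change ± SE on the log2(FPKM + 1) scale, limma, adjusted p = 0.000535 after Benjamini-Hochberg) from 22-60 h to 68-106 h and by 1.62 ± 0.30 (adjusted p = 0.000182) from there to 126-216 h. In adherent monoculture the highest value was 86.8 FPKM at 8.5 h and the lowest 7.02 FPKM at 216 h, and both steps were again past the threshold in limma, with falls of 1.57 ± 0.23 (adjusted p = 0.000193) and 1.00 ± 0.23 (adjusted p = 0.0107).

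Rara, the most widely expressed receptor of the family, changed less. In SFEB it ranged from 17.1 to 26.4 FPKM (median 19.4) at 0-9 h and from 20.8 to 26.2 FPKM (median 22.8) at 22-60 h, and from 8.76 to 17.9 FPKM (median 16.05) at 68-106 h. The third window lay wholly below the second, with its lowest value at 103 h. The fall between them was 0.60 ± 0.14 (limma, adjusted p = 0.00232), and no change was called from 68-106 h to 126-216 h (log2 fold change -0.13 ± 0.16, limma, adjusted p = 0.542), where the 4 values were 11.3, 12.04, 18.7 and 13.1 FPKM. In adherent monoculture Rara stood at 27.1, 28.9 and 27.0 FPKM at 0, 2.5 and 8.5 h and at 19.2 to 21.7 FPKM in the next 4 samples, so the groups did not overlap. That early step was 0.44 ± 0.12 lower (limma, adjusted p = 0.0380), but the call was lost when any 1 of 8 of the 15 libraries was left out (0, 2.5, 8.5, 35.5, 53.5, 80.5, 92.5 or 101.5 h; adjusted p 0.0539 to 0.181) and under both other scalings of the libraries. Rara then stood at 16.2 to 17.7 FPKM from 68.5 to 101.5 h and at 13.002, 14.2, 9.77 and 11.2 FPKM at 125.5, 140.5, 144 and 216 h, again without overlap. The fall into this last window was 0.49 ± 0.11 (limma, adjusted p = 0.00832) and was called without any 1 of the 15 libraries as well, and the change over the whole course was -1.15 ± 0.12 (limma, adjusted p = 1.54e-06).

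Rarb, the receptor whose promoter holds the DR5 element above, was the least abundant member in the first SFEB window, at 0.197 to 0.349 FPKM. It reached 0.544 to 1.35 FPKM (median 0.890) at 68-106 h, and 1.37 FPKM at 126 h, 2.37 FPKM at 142 h, 1.41 FPKM at 144 h and 1.14 FPKM at 216 h. At 22-60 h the parallel 60 h library had already 0.560 FPKM, above the 103 h library, and the other 5 stood at 0.302 FPKM or below. The rises were 0.59 ± 0.12 (limma, adjusted p = 0.000861) into 68-106 h and 0.43 ± 0.14 (adjusted p = 0.0135) into 126-216 h, the second of which was lost without the 142 h library (0.29, adjusted p = 0.0932) and with quantile normalisation (0.25). Rarb reached 1 FPKM only from 80 h on, so it entered the test only through the samples in which it was high. In adherent monoculture it peaked at 1.24 FPKM at 80.5 h and 1.22 FPKM at 101.5 h from 0.418 to 0.448 FPKM at 0-9 h, and it was not tested there because fewer than 3 libraries reached 1 FPKM.

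**Figure D1:**
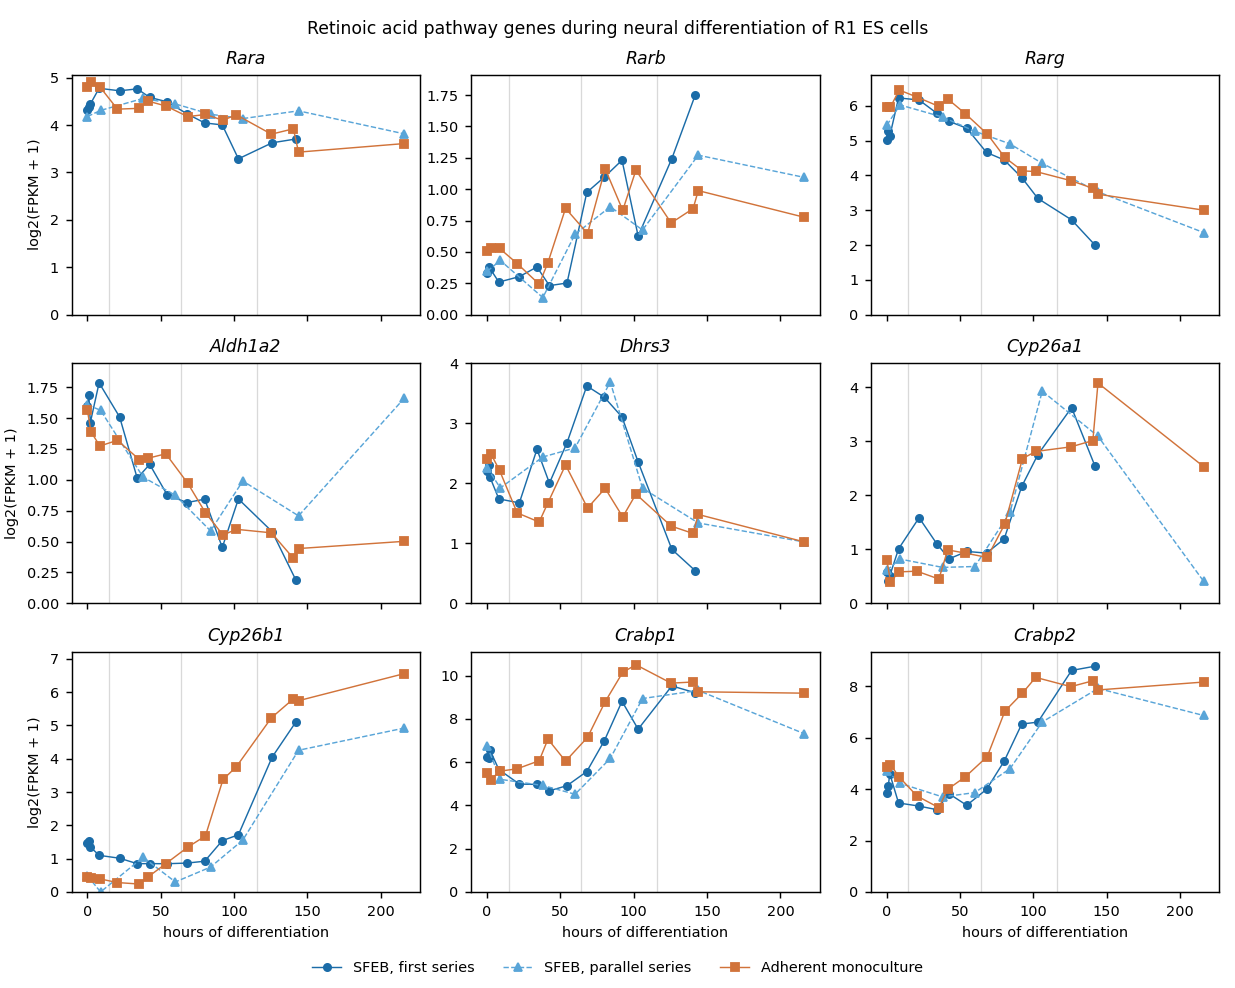
Level of each of the 9 genes, as log2(FPKM + 1), against hours of differentiation in the 14 first-series SFEB populations (circles), the 8 parallel SFEB populations (triangles) and the 15 adherent samples (squares), 1 library per point; vertical grey lines separate the 4 windows. Rarg rises within the first window and then runs down in all 3 series, in the first from 31.4 FPKM at 0 h to 74.0 FPKM at 8 h and 2.996 FPKM at 142 h. Cyp26b1 and Crabp2 run up late, and Cyp26a1 ends at 0.328 FPKM at 216 h in SFEB but at 4.79 FPKM in adherent culture.

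Of the enzymes, the maker of retinoic acid fell and both that break it down rose. Aldh1a2 stood at 1.76 to 2.45 FPKM (median 2.04) in the SFEB samples of 0-9 h and at 0.834 to 1.85 FPKM (median 1.02) at 22-60 h, then at 0.369 to 0.987 FPKM (median 0.777) at 68-106 h. The later values were 0.495, 0.143 and 0.634 FPKM at 126, 142 and 144 h, and 2.16 FPKM at 216 h, back within the range of the first window. From 0-9 h to 22-60 h it fell by 0.55 ± 0.17 (limma, adjusted p = 0.0157) with 1 of 6 libraries, that of 22 h, inside the earlier range, and quantile normalisation took the call away (-0.35). Of all the genes compared, Col3a1, a collagen on the fibroblast list, was among the 3 closest to Aldh1a2 across the 22 SFEB populations (Pearson r 0.916, and 0.952 across the 15 adherent samples), as a description over libraries that share the time course. Without the 4 samples of 0 to 2 h, in which the summed fibroblast markers were highest, the fall of Aldh1a2 was 0.60 and was no longer called (adjusted p = 0.149). At 216 h of SFEB, where Aldh1a2 was high again, the fibroblast markers summed to 109 FPKM, against 19.0, 18.0 and 40.4 FPKM at 126, 142 and 144 h. The part of such cells in the values of Aldh1a2 was not tested. In adherent monoculture Aldh1a2 fell from 1.42 to 1.96 FPKM at 0-9 h to 0.287 to 0.485 FPKM at 125.5 to 216 h with no return, a change of -0.94 ± 0.13 (limma, adjusted p = 2.16e-05). It was at 0.961 FPKM or less in every adherent library from 68.5 h on, so it passed the filter only through the earlier libraries and had to differ.

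Cyp26a1, a retinoic acid hydroxylase known to be induced by its own substrate, rose and fell within the SFEB course. It stayed between 0.329 and 2.00 FPKM until 60 h. It then stood at 0.904 FPKM at 68 h, 1.28 FPKM at 80 h, 2.22 FPKM at 84 h, 3.48 FPKM at 92 h, 5.74 FPKM at 103 h and 14.2 FPKM at 106 h. It was at 11.3 FPKM at 126 h, 4.81 FPKM at 142 h and 7.54 FPKM at 144 h, and at 0.328 FPKM at 216 h, level with the lowest of the early samples. All SFEB values of 5 FPKM or more thus fell between 103 and 144 h. Summed over the 4 mesoderm markers in the table (of 8 on the list, none at 0 in these libraries), the libraries of 84, 103, 106 and 144 h held 25.6, 22.5, 37.2 and 24.2 FPKM. Every other SFEB library held 9.52 FPKM or less, among them that of 126 h with 7.41 FPKM and that of 216 h with 8.18 FPKM. High mesoderm sums and high Cyp26a1 thus met at 103, 106 and 144 h but not at 84 or 126 h. The rise from 22-60 h to 68-106 h was 1.14 ± 0.44 (limma, adjusted p = 0.0477), a call at the edge of the threshold: it held without the library of 22, 68, 80, 84, 126, 144 or 216 h and was lost without any 1 of the other 15 (adjusted p up to 0.140). In the first series alone this rise was 0.64 and not called (limma, adjusted p = 0.173). The difference of the last window from the third was not called (0.31 ± 0.50, limma, adjusted p = 0.646). It was 1.32 and called in the first series alone, which ends at 142 h (limma, adjusted p = 0.0333), and -1.06 and not called in the parallel series alone, which holds the 216 h library (limma, adjusted p = 0.403). In adherent monoculture Cyp26a1 was below 1 FPKM until 68.5 h, reached 5.41 to 7.08 FPKM from 92.5 to 140.5 h, 15.9 FPKM at 144 h and was still at 4.79 FPKM at 216 h. Its highest library, that of 144 h, also had the highest sums of the 3 mesoderm markers in the table, 24.7 FPKM against 2.07 FPKM or less before, and of the 7 endoderm markers, 103 FPKM against 22.2 FPKM or less before. The part of such cells in the values of Cyp26a1 was not tested in either culture. The step from 22-60 h to 68-106 h there was 1.21 ± 0.39 (limma, adjusted p = 0.0241), lost without the library of 35.5, 92.5 or 101.5 h (adjusted p 0.0665 to 0.0873). The next step was 1.18 ± 0.39 (limma, adjusted p = 0.0496), and this call held only without the library of 92.5, 101.5 or 125.5 h and was lost without any 1 of the other 12 (adjusted p up to 0.174). Values of the 2 cultures were normalised apart and stand side by side only.

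Cyp26b1, the second hydroxylase, known from hindbrain and limb, came later than Cyp26a1 in SFEB and did not return. In SFEB it was at most 1.87 FPKM at 0-9 h (1 value below 0 after the authors' batch correction, at 9 h, was set to 0), 1.06 FPKM at 22-60 h and 2.29 FPKM at 68-106 h, and then 15.5 FPKM at 126 h, 33.1 FPKM at 142 h, 18.1 FPKM at 144 h and 29.3 FPKM at 216 h. The last window lay wholly above the other 3. The rise into it was 3.35 ± 0.28 (limma, adjusted p = 3.33e-08), with 3.31 in the first series alone and 3.43 in the parallel series alone. In adherent monoculture it had already left its early range (0.179 to 0.802 FPKM up to 53.5 h) at 68.5 h with 1.54 FPKM, and it climbed through 9.40 FPKM at 92.5 h and 36.5 FPKM at 125.5 h to 93.0 FPKM at 216 h. Both steps passed in limma there, with rises of 2.08 ± 0.44 (adjusted p = 0.00210) and 3.29 ± 0.44 (adjusted p = 0.000469). Within each library the ratio of Cyp26b1 to Cyp26a1 in FPKM went in SFEB from 0.137 at 106 h to 1.37 at 126 h, 2.40 at 144 h, 6.88 at 142 h and 89.2 at 216 h. In the adherent samples of the same span it was 2.07 at 101.5 h and 3.30 to 19.4 from 125.5 h on. Cyp26a1 was the more abundant of the pair in every SFEB library from 54.5 to 106 h and Cyp26b1 in every one from 126 h on, while in adherent monoculture Cyp26b1 was the more abundant in every library from 68.5 h on.

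Dhrs3, the retinaldehyde reductase, showed a peak in the SFEB populations that was not seen in adherent monoculture. It ranged from 2.34 to 3.96 FPKM (median 3.45) at 0-9 h and from 2.19 to 5.41 FPKM (median 4.68) at 22-60 h. It then stood at 11.3 FPKM at 68 h, 9.82 FPKM at 80 h, 11.9 FPKM at 84 h, 7.61 FPKM at 92 h, 4.12 FPKM at 103 h and 2.78 FPKM at 106 h. The last values were 0.866, 0.456, 1.53 and 1.03 FPKM. The 4 libraries from 68 to 92 h lay above every other SFEB library, and the last 4 lay below every other. The rise into 68-106 h was 0.70 ± 0.25 (limma, adjusted p = 0.0346) and was lost without the library of 22, 42.5, 68, 80, 84 or 92 h (adjusted p 0.0628 to 0.0905) and with either other scaling, whereas the fall from 68-106 h to 126-216 h was 2.07 ± 0.28 (limma, adjusted p = 9.89e-06). In adherent monoculture the values from 68.5 to 101.5 h were 2.01, 2.78, 1.71 and 2.54 FPKM, inside the range of 1.56 to 4.65 FPKM of the earlier samples, and the change into that window was -0.02 ± 0.19 (limma, adjusted p = 0.943). The change from 0-9 h to 22-60 h there was -0.66 ± 0.21 (limma, adjusted p = 0.0782) and was called without the 53.5 h library (-0.86, adjusted p = 0.0131). Whether the cultures differ in Dhrs3 was not tested, since their tables were scaled apart.

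The binding proteins were the most abundant members late in differentiation. Crabp1 ranged in SFEB from 35.9 to 107 FPKM (median 72.7) at 0-9 h and from 21.9 to 30.7 FPKM (median 29.2) at 22-60 h, so these windows did not overlap. It then stood at 46.5 FPKM at 68 h, 127 FPKM at 80 h, 71.3 FPKM at 84 h, 449 FPKM at 92 h, 183 FPKM at 103 h and 491 FPKM at 106 h. The last 4 values were 736 FPKM at 126 h, 590.1 FPKM at 142 h, 637 FPKM at 144 h and 159 FPKM at 216 h. The fall into 22-60 h was 1.27 ± 0.46 (limma, adjusted p = 0.0344), but it was lost without any 1 of 8 libraries (0 h of either series, 1, 2, 38, 42.5, 54.5 or 60 h; adjusted p 0.0508 to 0.0753) and came to 0.60 (adjusted p = 0.629) without the 4 samples of 0 to 2 h. The rise into 68-106 h was 2.51 ± 0.46 (limma, adjusted p = 0.000339). That into 126-216 h was 1.51 ± 0.52 (limma, adjusted p = 0.0216), with 216 h far below its neighbours, and it was lost without the library of 68, 84, 126, 142 or 144 h (adjusted p 0.0555 to 0.0733). In adherent monoculture Crabp1 was at 35.4 to 46.9 FPKM at 0-9 h and at 50.8 to 133 FPKM from 20.5 to 53.5 h, with no call between them (0.79 ± 0.57, limma, adjusted p = 0.530). It rose by 2.93 ± 0.53 (limma, adjusted p = 0.000800) to 141 FPKM at 68.5 h and up to 1449.65 FPKM at 101.5 h, and ended at 583 FPKM at 216 h.

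Crabp2, which passes retinoic acid on to the receptors in the nucleus, rose over the same times at a lower level. In SFEB it ranged from 10.0 to 25.3 FPKM (median 17.1) at 0-9 h, from 8.20 to 13.6 FPKM (median 10.7) at 22-60 h and from 14.9 to 96.7 FPKM (median 62.2) at 68-106 h. The last values were 391 FPKM at 126 h, 439 FPKM at 142 h, 240.4 FPKM at 144 h and 115.5 FPKM at 216 h. The third window lay wholly above the second, and the last wholly above all others. The rises were 2.05 ± 0.39 (limma, adjusted p = 0.000432) and 2.44 ± 0.44 (limma, adjusted p = 0.000143). In adherent monoculture Crabp2 had its lowest value, 8.71 FPKM, at 35.5 h and its highest, 324 FPKM, at 101.5 h, and rose by 3.22 ± 0.46 (limma, adjusted p = 0.000163) into 68-106 h. Its further change of 0.96 ± 0.46 was not called (limma, adjusted p = 0.159) except without the 101.5 h library (1.38, adjusted p = 0.0406). The Crabp2 to Crabp1 ratio within a library lay between 0.183 and 0.744 in all 22 SFEB populations and between 0.112 and 0.842 in all 15 adherent samples, so Crabp1 was the more abundant of the pair in every R1 library. Across the 22 SFEB populations the levels of the 2 genes had a Pearson r of 0.937 on the log2(FPKM + 1) scale, and across the adherent samples of 0.923, as descriptions over libraries that share 1 time course.

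**Figure D2:**
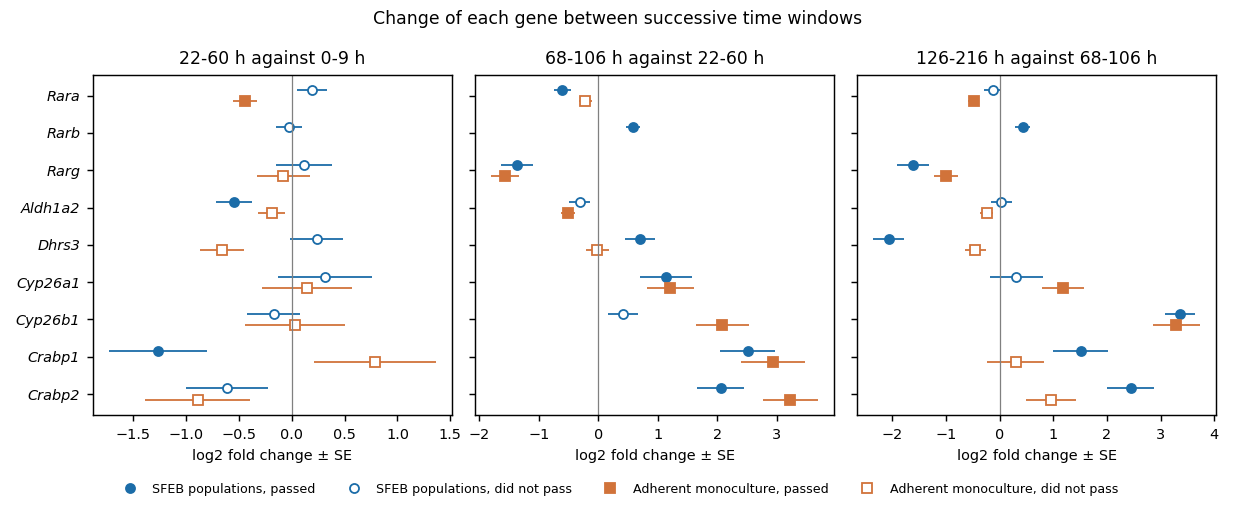
Log2 fold change on the log2(FPKM + 1) scale, with the SE of limma as the bar, of each gene between successive windows in SFEB (circles) and adherent monoculture (squares); filled symbols passed an adjusted p of 0.05. Rarb was tested in SFEB only, and the largest steps are the rises of Cyp26b1 into 126-216 h, at 3.35 in SFEB and 3.29 in adherent monoculture.

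In adherent monoculture Cyp26a1 reached 1 FPKM only from 80.5 h on and Cyp26b1 only from 68.5 h on, so that both, like Rarb in SFEB, had to differ between windows to be tested. Aldh1a2 reached 1 FPKM in 3 libraries only through those up to 60 h in either culture, so its changes from these to later windows were bound to the filter in the same way. The counts below hold these genes and are to be read with that limit. Counted over the course, 2 of the 9 members passed in SFEB from 0-9 h to 22-60 h (both lower), beside 38.2% of the 13363 genes tested (16.8% higher, 21.4% lower). From 22-60 h to 68-106 h 7 passed (5 higher, 2 lower), beside 36.8% of genes (22.6% higher, 14.2% lower). From there to 126-216 h 6 passed (4 higher, 2 lower), beside 45.2% (27.7% higher, 17.5% lower). Between the first and last windows all 9 passed, beside 66.9% of genes (37.2% higher, 29.7% lower): Rarb, Cyp26a1, Cyp26b1, Crabp1 and Crabp2 were higher and Rara, Rarg, Aldh1a2 and Dhrs3 lower. In adherent monoculture 1 of the 8 members tested passed in the first step (lower), beside 5.37% of 12879 genes (1.77% higher, 3.6% lower). In the next step 6 passed (4 higher, 2 lower), beside 39.3% (24.1% higher, 15.3% lower), and in the last 4 passed (2 higher, 2 lower), beside 18.4% (14% higher, 4.41% lower). Between its first and last windows all 8 passed (4 higher, 4 lower), beside 57.7% (34.5% higher, 23.2% lower), each in the same direction as in SFEB, with Cyp26b1 at 5.41 ± 0.47 and Crabp1 at 4.02 ± 0.57 (limma, adjusted p = 6.31e-07 and 3.16e-05). The median change of all genes into 68-106 h in adherent culture was 0.12 as deposited and 0.01 after median-ratio scaling, and the members' rises are to be read beside that shift. All 9 calls held without any 1 library, but without the 4 samples of 0 to 2 h Dhrs3 (-0.88, adjusted p = 0.0733) and Cyp26a1 (1.50, adjusted p = 0.0887) were no longer called.

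The SFEB windows mix 2 series of cultures, so each was also fitted alone. The step from 22-60 h to 68-106 h gave Crabp1 2.34 in the first series alone and 2.84 in the parallel series alone, Crabp2 2.12 and 1.92, and Rarg -1.62 and -0.85. With 2 libraries a window the parallel series alone called none of the 8 members it could test in that step, beside 1 of all genes. The values of the other called members also lay apart, at 0.64 and 2.13 for Cyp26a1, -0.75 and -0.32 for Rara and 0.90 and 0.29 for Dhrs3, each in 1 direction in both series. In the last step, where the first series ends at 142 h and the parallel series at 216 h, Crabp1 gave 2.14 and 0.76, Crabp2 3.15 and 1.69, Rarg -1.74 and -1.68 and Dhrs3 -2.41 and -1.62, of which Rarg alone passed in both series (limma, adjusted p = 0.00418 and 0.0437), besides Cyp26b1. From first to last window Aldh1a2 gave -1.25 and -0.40 and Cyp26a1 2.45 and 1.04, and in the parallel series alone 3 members passed.

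The other genes of the pathway were read as 3 lists. Of 16 genes known to respond to retinoic acid, 13 were in the SFEB table and 12 were tested. From 22-60 h to 68-106 h 8 of them rose and none fell, beside 22.6% and 14.2% of all genes, with a median of 1.26 beside 0.05 over all genes. Hoxa2, 1 of the 8, had a median of 0.515 FPKM at 22-60 h and entered the test only through later windows. Hoxb2, a hindbrain patterning gene, went from a median of 1.23 FPKM to 9.59 FPKM, a rise of 2.53 ± 0.34 (limma, adjusted p = 3.23e-05), and its adherent rise was 3.07 ± 0.47 (limma, adjusted p = 0.000233). In adherent culture Hoxb2, Hoxa2 and Tshz1 reached 1 FPKM in 3 libraries only through those of 68.5 h and later, so they had to differ there to be tested. Meis1 and Meis2, cofactors of Hox proteins, rose by 2.20 ± 0.31 and 2.29 ± 0.24 (limma, adjusted p = 3.72e-05 and 7.26e-06). Meis1 and Tshz1, a zinc finger gene, rose further into 126-216 h, by 2.08 ± 0.34 and 1.69 ± 0.19 (limma, adjusted p = 6.28e-05 and 9.78e-07). In adherent culture 8 of 12 tested genes of this list rose and 1 fell into 68-106 h, beside 24.1% and 15.3% of all genes, with a median of 1.07 beside 0.12.

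Of 21 genes of retinoid supply and breakdown, 13 were in each R1 table, with 11 tested in SFEB and 13 in adherent culture. In SFEB 5 rose and none fell into 68-106 h, beside 22.6% and 14.2% of all genes, among them the retinol transporter Stra6, the retinol dehydrogenase Rdh10 and Cyp26c1, the third Cyp26 enzyme. In adherent culture 7 rose, these among them, and 1 fell, the alcohol dehydrogenase Adh5, beside 24.1% and 15.3% of all genes. Stra6 in SFEB and Cyp26c1 in both cultures reached 1 FPKM only in the later windows and were tested only through them. Cyp1b1, a cytochrome P450, fell by 2.27 ± 0.22 in SFEB from 0-9 h to 22-60 h (limma, adjusted p = 8.60e-08) and by 1.56 ± 0.24 in adherent culture (limma, adjusted p = 0.00138), the span over which the fibroblast markers fell too. Their part in it was not tested. Ttr and Rbp4, which carry vitamin A in serum, rose in adherent culture into the last window, by 2.61 ± 0.61 and 2.25 ± 0.52 (limma, adjusted p = 0.0114 for each), where summed endoderm markers reached 17.3 to 103 FPKM, against 11.5 FPKM or less before. The part of such cells was not tested, and Ttr, at 0.145 FPKM or less in every earlier library, passed the filter only through that window and so had to differ. In SFEB Rbp4 went the other way and was called lower from 0-9 h to 126-216 h, with medians of 2.33 and 1.17 FPKM. Among 16 receptor partners and coregulators, all tested in both cultures, 8, 8 and 4 passed in the successive SFEB steps, beside 38.2%, 36.8% and 45.2% of all genes, with medians of 0.10, 0.06 and 0.06 beside -0.02, 0.05 and 0.05. In the adherent steps 0, 5 and 0 passed, beside 5.37%, 39.3% and 18.4%. Rxrg, an RXR partner, rose by 1.47 ± 0.17 into 22-60 h in SFEB (limma, adjusted p = 8.34e-07), from a median of 0.483 FPKM to 3.82 FPKM. It was called lower again there from 68-106 h to 126-216 h, with medians of 3.57 and 0.806 FPKM.

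For likeness of pattern, each member was compared with 12706 genes that passed the filter in both R1 tables, by Pearson r over the 22 SFEB populations, as a description. The closest gene to Cyp26b1 was Ebf3 (r 0.983, and 0.971 over the 15 adherent samples), followed by Fgfr3 (0.983 and 0.992) and 2610017I09Rik (0.975 and 0.996). The closest to Crabp2 were Emilin2 (0.973 and 0.957), Gal3st4 (0.972 and 0.956) and Fam181a (0.965 and 0.941). For Crabp1 they were Nuak1 (0.952 and 0.884), Phactr2 (0.945 and 0.823) and Hs3st3b1 (0.940 and 0.924). Those of the late members thus had a like course in the other culture. For Cyp26a1 they were Cyp26c1 (0.939 and 0.841), Clic6 (0.922 and 0.892) and Gm266 (0.873 and 0.917). For Rarb they were Glra1 (0.945 and 0.758), Hoxa4 (0.942 and 0.746) and B4galt4 (0.932 and 0.719). For Rarg they were Dnaja3 (0.983 and 0.946), Gtse1 (0.981 and 0.965) and Afg3l2 (0.979 and 0.861). Dhrs3 stood apart from these: its closest genes, Tmem63a (0.879), Plek2 (0.869) and Ocln (0.864), had 0.18, 0.28 and -0.43 in adherent culture, where Dhrs3 had no peak. The closest to Rara were Tcf15 (0.915 and 0.864), Gstp2 (0.908 and 0.894) and 2410012M07Rik (0.908 and 0.859), and to Aldh1a2, besides Col3a1, Lepre1 (0.919 and 0.696) and Ppp1r13b (0.903 and 0.794). Of these 27 genes 5 were also among the 3 closest by Spearman's rho.

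In the single cells Crabp1 and Crabp2 were on in all 8 cells at 106 and 144 h and Cyp26b1 in all 8 at 144 h, while Cyp26b1 was at 0 in the cells of 216 h and Rarb was seen in few cells at any late time. The values are log10(RPKM + 1) after quantile normalisation, which can leave traces just above 0, so cells above 0.5 RPKM are given beside cells above 0. The 8 cells of a time point come from 1 culture and are not replicates, so no test was made, and intervals cover counting error only. Cells had a median of 6145 (144 h) to 8972 (0 h) genes above 0.

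Crabp2 was above 0.5 RPKM in 1 to 3 of 8 cells at every time from 0 to 84 h, and in 8 of 8 cells at 106, 144 and 216 h (exact Clopper-Pearson 95% interval of 8 of 8, 63.1 to 100%). Its mean was 0.0752 ± 0.121 (SD, n = 8 cells) at 84 h, 1.34 ± 0.67 at 106 h, 1.91 ± 0.53 at 144 h and 1.57 ± 0.92 at 216 h. The lowest cell at 106 h, at 0.558, was above every cell at 84 h, of which the highest was at 0.351. Crabp1 was above 0.5 RPKM in 8 of 8 cells at 0, 9, 106 and 144 h, in 7 at 38 h, in 4 at 60 h, in 5 at 84 h and in 6 at 216 h. Its mean went from 1.57 ± 0.59 at 9 h to 0.37 ± 0.51 at 60 h, reached 2.07 ± 0.52 at 144 h and was 0.36 ± 0.30 at 216 h. At 144 h both binding proteins and Cyp26b1 were above 0.5 RPKM in all 8 cells. At 216 h 6 cells had both binding proteins above 0.5 RPKM and 2 had Crabp2 alone, the only cells of the 64 with that combination. The parallel population at 216 h still had 159 FPKM of Crabp1 against 115.5 FPKM of Crabp2.

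Cyp26b1 was above 0.5 RPKM in 1 cell, of 60 h, among those from 0 to 106 h, in 8 of 8 cells at 144 h (mean 1.402 ± 0.879) and in 0 of 8 cells at 216 h, where every cell was listed at 0. The study's methods keep genes above 0.5 RPKM in at least 8 of the 64 cells. With 9 cells in all, Cyp26b1 could meet such a filter only through the cells of 144 h. On the values used here Rarb, with 2 cells, and Aldh1a2, with 6, would not meet it. The exact Clopper-Pearson 95% interval of 0 of 8 reaches up to 36.9% of cells with a value above 0, which is no limit on the share of cells that express the gene. The population collected beside them at 216 h had 29.3 FPKM, more than the 18.1 FPKM of the 144 h population. Cells and population of 216 h thus stood far apart for this gene, and the cells of 216 h had a median of 7951.5 genes above 0, more than those of 144 h. Whether the picked cells represent that culture was not tested.

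The receptors were spread unevenly over cells. Rarg was above 0.5 RPKM in 6 of 8 cells at 0 h and 6 at 38 h, with means of 0.76 ± 0.75 and 0.79 ± 0.60, and in 1 to 3 cells at every time from 60 h on. Rara was above 0.5 RPKM in 7, 6 and 5 cells at 0, 9 and 38 h and in 2 or 3 cells at 60, 84, 106 and 216 h, with 5 cells at 144 h. Rarb was above 0.5 RPKM in 2 cells of 64, both at 9 h, of which 1 stood at 1.61, while the populations were highest for it at 126 to 144 h. Of the enzymes, Aldh1a2 was above 0.5 RPKM in 6 cells of 64, with the highest at 2.22 in a cell of 84 h, and in none at 0, 9 or 216 h although the parallel populations were highest then. Dhrs3 was above 0.5 RPKM in 7 of 8 cells at 38 h and in 3 at 84 h, where the population was highest. Among the 216 h cells, number 16 stands apart for Pou5f1, an ES cell gene, at 1.94 against 0.426 to 1.46 in the other 7. Its Crabp2 value was 0.272 against 1.05 to 3.46 in the others, and without it the mean of Crabp2 at 216 h was 1.76.

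**Figure D3:**
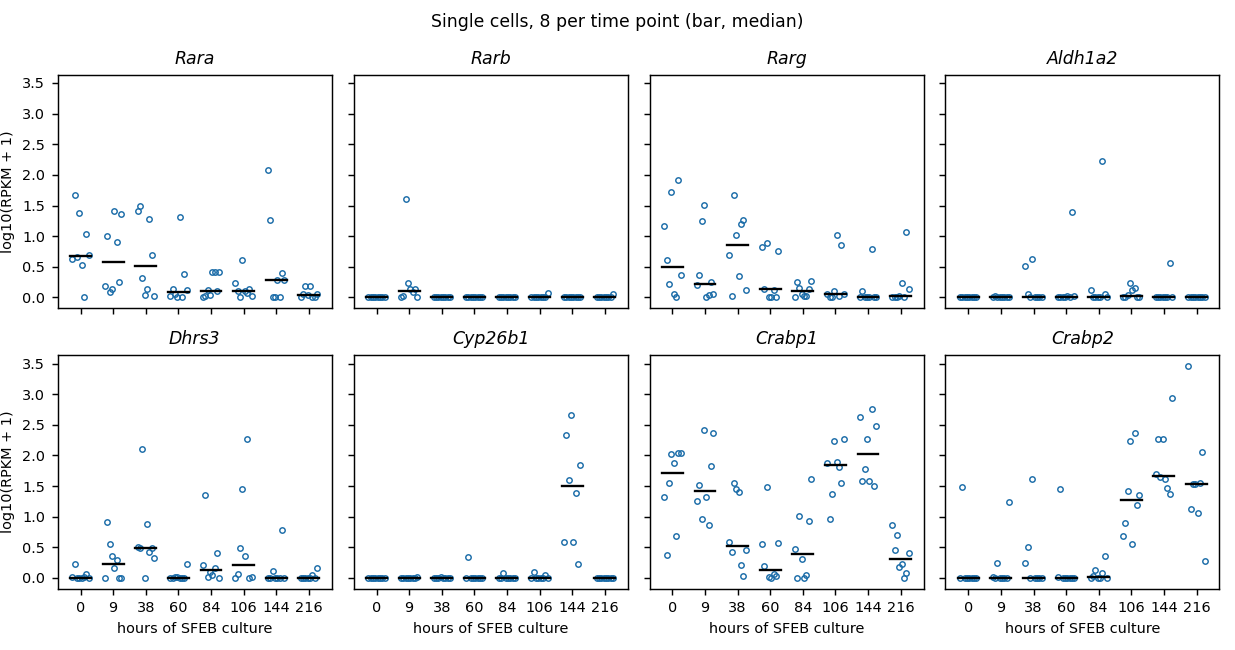
Each open circle is 1 cell, with log10(RPKM + 1) of the 8 members analysed in single cells on the vertical axis and 8 cells at each of 8 SFEB time points; the bar is the median. Cyp26b1 is above 0.5 RPKM in all 8 cells of 144 h, with values of 0.228 to 2.66, and otherwise only in 1 cell of 60 h, at 0.345. It is at 0 in all 8 cells of 216 h, while Crabp2 is on in all cells from 106 h.

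The E14 samples compare WT cells with 1 Fyn KO clone, so the loss of Fyn and any other trait of that clone cannot be told apart. Before the results, 1 library stands apart: replicate 3 of Fyn KO day 0 had Rarg at 83.6 FPKM against 18.4 and 8.82 FPKM in the other 2, Rara at 21.2 FPKM against 7.18 and 4.07 FPKM, Crabp1 at 12.9 FPKM and Crabp2 at 3.86 FPKM. Rarb, Aldh1a2 and Cyp26b1 reached 1 FPKM in fewer than 3 of the 12 libraries and were not tested; Cyp26b1 was at most 0.364 FPKM. Cyp26a1 reached 1 FPKM at day 4 alone, and Crabp2 at day 4 and in 1 library of day 0, so that both were tested only through the day 4 libraries and had to differ between days. A listed value of 0 may be a failed estimate as well as an absent transcript.

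Cyp26a1 was all but absent at day 0 and rose to day 4 in both genotypes, with Fyn KO values below the WT values at day 4, a difference that did not pass the test. It was listed at 0, 0.0792 and 0.102 FPKM in WT at day 0 and at 19.9, 8.95 and 21.8 FPKM at day 4. In Fyn KO cells it was listed at 0, 0.0691 and 0 FPKM at day 0 and at 3.75, 0.789 and 5.51 FPKM at day 4. All 3 Fyn KO values at day 4 lay below all 3 WT values. The share of all genes that part in this way was not counted. The rise was 3.99 ± 0.42 in WT (limma, adjusted p = 0.000204) and 1.90 ± 0.42 in Fyn KO cells (limma, adjusted p = 0.0107). At day 4 Fyn KO against WT was -2.14 ± 0.42, which did not pass (limma, adjusted p = 0.0902). Nor did it pass with the replicate number as a block (limma, adjusted p = 0.0862) or with only the 2 groups compared (limma, adjusted p = 0.279). The test of the difference between the rises gave -2.09 ± 0.60 (limma, adjusted p = 0.997). Among 12257 genes 9, or 0.0734%, passed at day 4 between the genotypes, and no gene passed the test of the difference between the rises in limma, where 537 had an unadjusted p under 0.05, fewer than 5% of those tested.

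Crabp2 was at 0.677, 0.323 and 0.420 FPKM in WT at day 0 and at 165, 34.1 and 45.3 FPKM at day 4. In Fyn KO cells it was at 0.0789, 0.259 and 3.86 FPKM at day 0 and at 19.5, 18.7 and 80.0 FPKM at day 4. Day 0 and day 4 did not overlap in either genotype, while the genotypes overlapped at both days. The rises were 5.46 ± 0.71 (limma, adjusted p = 0.000493) and 4.09 ± 0.71 (limma, adjusted p = 0.00337). Crabp1 in WT was at 16.8, 3.06 and 4.45 FPKM at day 0 and at 502, 15.8 and 32.01 FPKM at day 4. The first of these stands far above the other 2. The rise of 3.16 ± 1.17 did not pass (limma, adjusted p = 0.0684) but did with the replicate number as a block (adjusted p = 0.0414), without WT day 4 replicate 2 (4.14, adjusted p = 0.0328) and without Fyn KO day 0 replicate 3 (adjusted p = 0.0443). In Fyn KO cells Crabp1 was at 1.83, 0.118 and 12.9 FPKM at day 0 and at 4.89, 5.45 and 14.1 FPKM at day 4, so the days overlapped and no change was called (1.23 ± 1.17, limma, adjusted p = 0.487). Unlike in the R1 cultures, Crabp2 was above Crabp1 in 5 of the 6 day 4 libraries, with WT replicate 1 as the exception.

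No fall of a receptor was called over these 4 days. Rarg was at 28.4, 8.20 and 9.84 FPKM in WT at day 0 and at 21.4, 21.2 and 32.9 FPKM at day 4, with overlap and no call (0.84 ± 0.64, limma, adjusted p = 0.359). In Fyn KO cells the change in Rarg was 0.52 ± 0.64 (limma, adjusted p = 0.598), and it passed, at 1.39, only without Fyn KO day 0 replicate 3 (adjusted p = 0.0402). The change of Rara in WT was 1.00 ± 0.48 and was not called (limma, adjusted p = 0.146), but it was without the same library (adjusted p = 0.0484). Dhrs3 ran from 0.765 to 3.75 FPKM over all 12 libraries with no call in any comparison. In all, 2 of the 6 members tested passed between days in WT, both higher, beside 25.8% of genes (15.5% higher), and the same 2, Cyp26a1 and Crabp2, in Fyn KO cells, beside 19.3% (11.8% higher). As the filter fixed that both differ, nothing is read from these counts. Between the genotypes none of the 6 passed at day 0, beside 0.171% of genes, or at day 4, beside 0.0734% of genes. The comparisons between genotypes and between days share libraries.

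**Figure D4:**
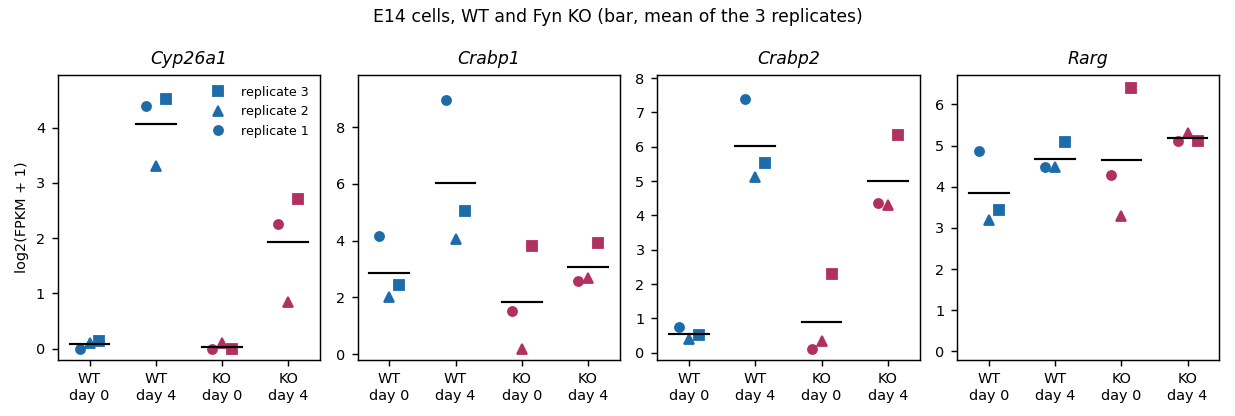
Level as log2(FPKM + 1) of Cyp26a1, Crabp1, Crabp2 and Rarg in each E14 library, with WT in blue and Fyn KO in red, a symbol for each replicate number and a bar for the mean of the 3 replicates. All 3 Fyn KO libraries of day 4 lie below all 3 WT libraries for Cyp26a1, a difference that did not pass the test. Replicate 3 of Fyn KO day 0 is the highest Rarg library, at 83.6 FPKM.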

How the data were processed

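RNA-seq libraries of mouse R1 and E14 embryonic stem cell cultures were made with a Nextera XT kit. The study's methods give 100 bp single-end reads, the mm9 build, TopHat and Cufflinks; the submitters' processing notes list TopHat2 2.0.8b, Cufflinks 2.1.1 and both mm9 and mm10, so the build behind the E14 values is not settled. The authors deposited FPKM for the adherent and E14 samples, FPKM after ComBat batch correction for the SFEB populations (407 genes hold a value below 0, the lowest -6.42) and log10(RPKM + 1) after quantile normalisation for single cells. The paper states a minimum number of reads per library in its account of the single cells and their parallel populations. No counts were used here, so the depth of each library is unknown, no interval from reads can be given, and low FPKM are the least precise. The batch correction may have moved the 2 SFEB series towards each other.

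Groups came from the labels. Values below 0 were set to 0, log2(FPKM + 1) was taken, genes at 1 FPKM or more in at least 3 samples were kept, and limma 3.58.1 (trend, R 4.3.3) was fitted to all genes of a table, with Benjamini-Hochberg adjustment over all of them and a threshold of 0.05. A fold change on this scale understates that of low genes. P-values measure only the spread between these samples, which may be technical. Members, windows and lists were chosen with earlier results of these data known. The genes named from the other pathway lists were the 3 with the largest change among those called in each comparison, with the genes counted in a list named after their values were seen, and the 3 genes most like each member were those with the highest Pearson r in SFEB. On simulated data with 200 changed genes the fit recovered 89% and 100% of changes of log2 1 and 2 between the first and last SFEB windows (12869 genes), 75% and 97% in adherent culture and 67% and 93% between days in WT.

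Replicate numbers of E14 samples were checked by the correlation of deviations from group means: same numbers gave 0.199 to 0.224 between WT day 0 and day 4 and 0.136 to 0.258 between genotypes at day 4. Same numbers gave 0.00112 to 0.0899 between Fyn KO days and -0.115 to 0.339 between genotypes at day 0. The main fit did not pair the E14 samples in any comparison, and the replicate number entered only as a block in an alternative fit. The alternatives were another pseudocount (0.1), no filter or a filter on the mean, 2 other scalings, the replicate block, fits on fewer groups, each SFEB series alone, and leaving out each library. Promoters were read from RefSeq (GRCm38.p6); a window for Crabp2 was not analysed here. Some genes of the other pathway lists are counted in them but their values are not reported here.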

Additional observations from a re-analysis of the deposited data

Results flagged for a closer look

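In 3 of 63 groups of a gene and a window, 1 library stood far from the rest by Dixon's criterion on the log2(FPKM + 1) scale. Chance flags about 1 in 20 groups, and the libraries of a window differ in time. Rara was lowest at 103 h of the first SFEB series, at 8.76 FPKM among 68-106 h values of otherwise 15.03 to 17.9 FPKM. Cyp26b1 was lowest at 60 h of the parallel SFEB series, at 0.232 FPKM against 0.800 to 1.06 FPKM in the other libraries of 22-60 h. Crabp1 was lowest at 216 h of the parallel SFEB series, at 159 FPKM against 590.1 to 736 FPKM at 126 to 144 h.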

How the results depend on the processing

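Of 2337 values of single members under the alternatives, 2227 kept direction and side of the threshold, 97 lost the call, 13 gained one and 0 changed direction while called. Members called in SFEB from 0-9 h to 22-60 h went from 2 to 1 with a pseudocount of 0.1, to 1 with quantile normalisation, to 0 in the parallel series alone and to 0 without the 4 samples of 0 to 2 h, an alternative chosen after seeing the data (all genes from 5110 to 466 and 1549 in these last fits). In the parallel series alone they went from 7 to 0 into 68-106 h (all genes from 4915 to 1), from 6 to 2 into 126-216 h (from 6040 to 798, and to 3288 in the first series alone) and from 9 to 3 over the whole course (from 8946 to 4700). These fits hold fewer samples, and Rarb was below the filter in the parallel series. The adherent early step went from 1 member to 0 with quantile and with median-ratio scaling. Fitting only the groups compared took the Fyn KO days from 2 members to 1, because Cyp26a1 was then below the filter and not tested. All genes called between genotypes went at day 4 from 9 to 24 with no filter, 17 with quantile normalisation and 5 with only the groups compared, and at day 0 from 21 to 35 with no filter, 38 with the replicate block and 2 with only the groups compared. The difference between the rises went from 0 to 1 gene with no filter and 2 with the replicate block. The replicate block changed the call of 1 member, Crabp1 in WT. Leaving out 1 library gave 1 to 2, 5 to 8, 4 to 6 and 9 members in the SFEB steps and whole course (all genes 4242 to 5564, 4014 to 5385, 4601 to 6498 and 8151 to 8980). In adherent culture it gave 0 to 1, 5 to 6, 3 to 5 and 8 members (158 to 1353, 3640 to 5893, 877 to 3106 and 6557 to 7706 genes). In E14 it gave 2 to 4 members in WT and 2 to 3 in Fyn KO (1831 to 3528 and 1041 to 3063 genes), 0 members between genotypes (5 to 14 genes at day 4, 4 to 128 at day 0) and 0 for the difference between the rises (0 to 4 genes). The cause of the other changes was not tested. Quantile normalisation moved the share of higher calls from 44.0% to 56.8%, from 61.4% to 51.0% and from 61.3% to 46.1% in the SFEB steps.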

Other observations

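In E14 cells genes of the other lists moved over the 4 days in both genotypes. Cdx1, a homeobox gene of the posterior embryo that responds to retinoic acid, fell by 4.75 ± 1.07 in WT and by 4.28 ± 1.07 in Fyn KO cells (limma, adjusted p = 0.00875 and 0.0180). It was at 0.194 FPKM or less in all 6 libraries of day 4, so it passed the filter only through day 0 and had to differ. At day 0 it ranged from 17.2 to 39.5 FPKM in WT and stood at 0.745, 64.1 and 76.1 FPKM in the Fyn KO libraries in order of value. Fabp5, a fatty acid binding protein that can also carry retinoic acid, rose by 1.65 and 2.21. Of 10 tested genes of retinoid supply and breakdown, 3 rose in each genotype, among them Stra6 in both, beside 15.5% of all genes in WT and 11.8% in Fyn KO cells, and Aldh1a3, an enzyme that makes retinoic acid, fell in WT. Of 7 tested genes of the retinoic acid responsive list, none rose and 2 fell in each genotype, Cdx1 among them in both, beside 1262 genes lower in WT and 927 in Fyn KO cells of 12257 tested. Summed endoderm markers stood at 9.77 to 136 FPKM in WT at day 4 and at 2.95 to 26.7 FPKM in Fyn KO cells, and neural progenitor markers at 23.3 to 182 FPKM and 10.1 to 31.2 FPKM. Their part in the lower Cyp26a1 values of the Fyn KO cells was not tested.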
